A study of Mus musculus with 24 samples.

Results

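A set of 8 genes that had been picked for a difference between wild-type (WT) and DRD5-/- bone marrow-derived macrophages (BMDMs) with and without dopamine (DA) were followed through 24 RNA-seq libraries: *Nnt*, *Tmem267*, *Dynlt1b*, *Cd59a*, *Gdf3*, *Itgb7*, *Camk2b* and *Gm1673*. They are 8 of 18740 genes listed for either stimulus, and all 8 are listed in both the M1 and the M2 files. The differences between genotypes chose these genes, so they are described here without a test. The effect of DA within a genotype was not itself a comparison of the choice and was tested. These tests use the same libraries as the choice, so their p-values for the 8 genes are not free of it.

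The libraries came from BMDMs, macrophages grown in culture from bone marrow. The M1 stimulus was LPS at 100 ng/ml plus IFN-γ at 50 ng/ml for 12 h, and the M2 stimulus was IL-4 plus IL-13, each at 10 ng/ml, for the same time. In either stimulus both genotypes, WT and DRD5-/-, were cultured untreated or with DA, with 3 libraries in each of the 4 groups. The mice were 10 weeks old and labelled C57BL/6 in all groups, with no substrain named; the study's methods describe male mice and a knockout that a company made with CRISPR-Cas9, and bone marrow flushed from the long bones of the leg, while the growth label names the colon as the source. Neither the labels nor the methods say whether a replicate number is a mouse or a culture, or whether the WT and DRD5-/- donors of these libraries were littermates. The p-values below therefore measure the spread between these libraries only, and genotype, substrain, colony and culture cannot be told apart in this design.

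The targeted gene gave little to check the labels with. *Drd5*, which encodes the D5 dopamine receptor, is not listed in the M1 files. In M2 its FPKM was 0 in 10 of 12 libraries and 0.06 and 0.03 in 1 untreated and 1 DA-treated WT library. FPKM are fragments scaled by transcript length and by the mapped fragments of a library. All 10 macrophage markers examined reached an FPKM of 1 in every library. The summed FPKM of the 8 fibroblast and stromal markers in M2 was 133 to 136 in untreated WT, 110 to 111 in DA-treated WT, 84.3 to 86.5 in untreated DRD5-/- and 91.8 to 93.1 in DA-treated DRD5-/- BMDMs, so it was lower in every DRD5-/- library than in every WT library. In M2, 6 of the 9 neutrophil markers were listed. Their summed FPKM was low, at 0.92 to 1.21 in DRD5-/- and 1.49 to 2.24 in WT libraries. It was thus lower in every DRD5-/- library than in every WT library. *Elane* and *Mpo* stayed at or under 0.06 there. In M1 the summed FPKM of the neutrophil markers was 15.6 to 21.2 in DRD5-/- and 39.4 to 74.1 in WT libraries, mostly from *S100a8* and *S100a9*, while *Elane* was at 0 throughout. The part of these cells in the results below was not tested, and fewer cells of a type and less RNA per cell cannot be told apart in bulk libraries.

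The 8 genes belong to no common pathway. *Nnt* encodes the nicotinamide nucleotide transhydrogenase of the inner mitochondrial membrane, which makes NADPH for the removal of peroxide; the C57BL/6J substrain is known for a deletion of several of its exons, which C57BL/6N mice do not carry, and the mouse reference genome was made from C57BL/6J. *Tmem267* encodes a membrane protein of unknown role. *Dynlt1b* encodes a light chain of cytoplasmic dynein, the motor that moves cargo towards the centre of the cell. *Cd59a* encodes a surface inhibitor of the membrane attack complex of complement, and *Itgb7* the integrin β7 chain, which pairs with α4 or αE to hold leukocytes in the gut. *Gdf3* encodes a secreted ligand of the TGF-β family, *Camk2b* the β chain of a calcium and calmodulin-dependent kinase that is best known in neurons, and *Gm1673* a small predicted protein.

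The first question was whether the difference held in both stimuli. It did not for the 5 genes tested in M1. *Tmem267*, *Camk2b* and *Gm1673* were under 1 FPKM in every M1 library, where a difference can hardly be seen. Every one of the 8 genes separated WT from DRD5-/- BMDMs in M2, with and without DA, and none did so in both conditions in M1. In M2 all 6 DRD5-/- libraries lay above all 6 WT libraries for *Nnt*, *Dynlt1b*, *Cd59a*, *Camk2b* and *Gm1673*, and below them for *Tmem267*, *Gdf3* and *Itgb7*. In M1 the 6 and 6 libraries overlapped for all 8 genes. The 3 untreated libraries of each genotype did not overlap for 8 of 8 genes in M2, where 39.5% of the 10735 tested genes did not overlap either. The count with DA was also 8 of 8 in M2, against 79.1% of the tested genes; since the rule used these contrasts, nothing is read from these counts. In M1 the groups did not overlap for 1 of 8 genes without DA, *Tmem267*, against 30.9% of 10040 tested genes, and for 2 of 8 with DA, *Dynlt1b* and *Itgb7*, against 56.2%. The median absolute difference of the 8 genes, on the log2(FPKM + 1) scale, was 1.2 without and 1.42 with DA in M2, beside 0.08 and 0.29 over all tested genes. In M1 it was 0.10 and 0.14, beside 0.07 and 0.14 over all tested genes. The rule used these contrasts, so nothing is read from the medians either.

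**Figure D1:**
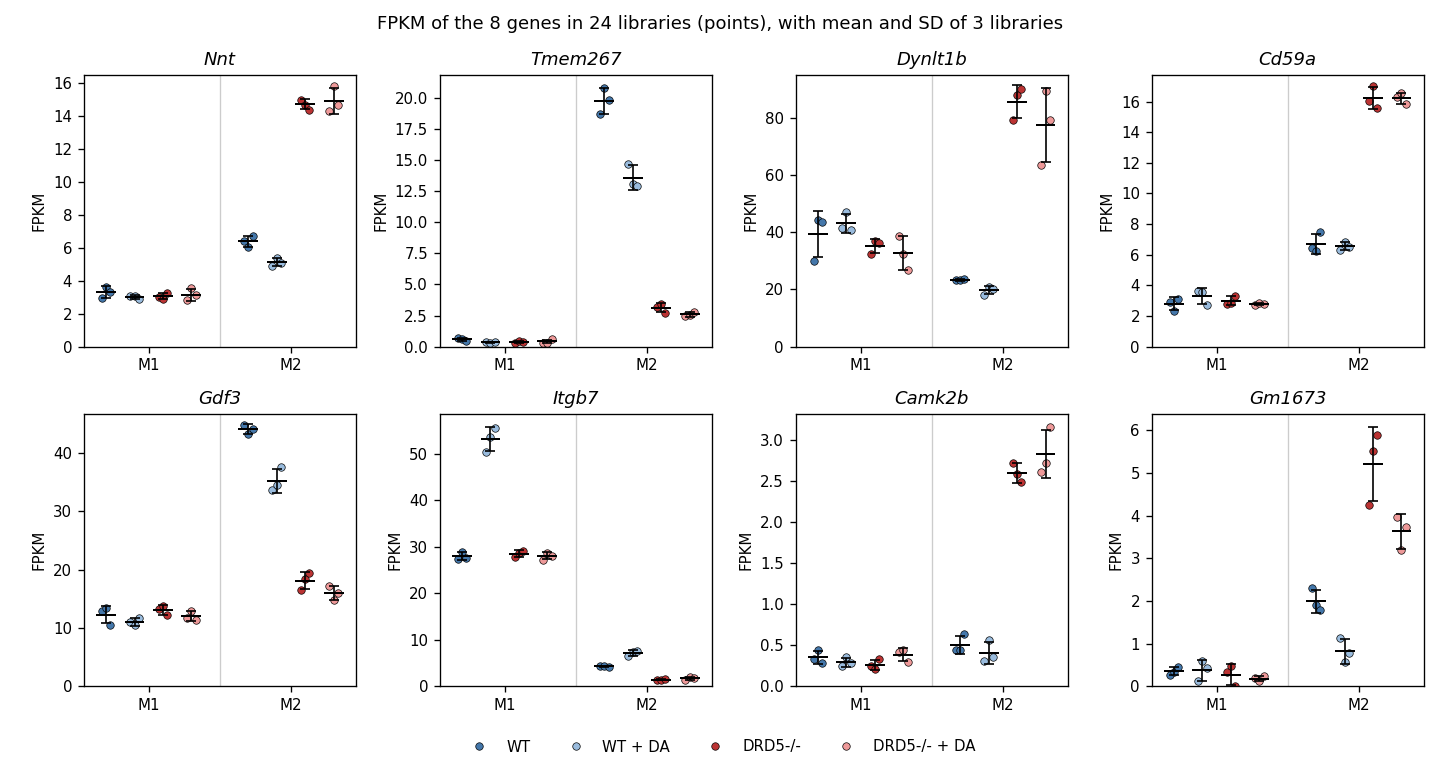
FPKM of each gene (y axis, from 0) in the 12 M1 and 12 M2 libraries; points are libraries, horizontal lines the mean of 3 libraries and bars the SD. In M2 the red DRD5-/- points lie apart from the blue WT points in all 8 panels, whereas in M1 only *Itgb7* in DA-treated WT stands clearly apart, at 50.3 to 55.4.

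*Nnt* (chr13:119335527-119409257, GRCm38) was higher in DRD5-/- M2 BMDMs. Its FPKM in M2 was 6.41, 6.03 and 6.71 in untreated WT, 4.90, 5.38 and 5.10 in DA-treated WT, 14.98, 14.7 and 14.4 in untreated DRD5-/- and 14.3, 15.8 and 14.7 in DA-treated DRD5-/- BMDMs. The DRD5-/- mean was 2.30 times the WT mean without DA and 2.91 times with DA, and the log2 differences were 1.09 and 1.38 (SE 0.0487). The lowest DRD5-/- library, at 14.3, was far above the highest WT library, at 6.71. In M1 the 12 values lay between 2.81 and 3.64, with log2 differences of −0.09 and 0.05 (SE 0.0744). A value per gene does not show which exons the fragments came from, so the exons known to be deleted in C57BL/6J could not be examined.

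With DA *Nnt* fell by 0.27 on the log2 scale in WT M2 BMDMs (SE 0.0487, limma, Benjamini-Hochberg adjusted p = 0.000182), a call that was lost in some of the other settings (adjusted p from 7.22e-05 to 0.00145). Its difference with DA in DRD5-/- M2 BMDMs was 0.02 (SE 0.0487, limma adjusted p = 0.766).

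*Tmem267* (chr13:119488086-119610459) lies 78.8 kb past the end of *Nnt* and differed the opposite way. In M2 it was at 18.7, 20.9 and 19.8 FPKM in untreated WT and at 3.21, 3.46 and 2.71 in untreated DRD5-/- BMDMs. With DA the values were 14.7, 13.1 and 13.0 in WT and 2.48, 2.51 and 2.82 in DRD5-/- BMDMs. The WT mean was therefore 6.34 times the DRD5-/- mean without DA and 5.22 times with DA (log2 differences −2.34 and −2.02, SE 0.0706). In M1 every library was between 0.25 and 0.69, below the level at which genes were tested. Untreated M1 WT libraries were at 0.69, 0.61 and 0.44 and untreated M1 DRD5-/- libraries at 0.25, 0.42 and 0.36, the same direction as in M2, and the order did not hold with DA. In WT M2 BMDMs *Tmem267* fell by 0.51 on the log2 scale with DA (SE 0.0706, limma adjusted p = 1.4e-05). In DRD5-/- M2 BMDMs the difference was −0.19 (limma adjusted p = 0.0513), not past the threshold.

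*Paip1* and *4833420G17Rik* lie between *Nnt* and *Tmem267*. In M2 *Paip1* differed by −0.03 without DA (limma adjusted p = 0.62) and by −0.10 with DA (limma adjusted p = 0.0596). In M2 *4833420G17Rik* differed by −0.11 without DA (SE 0.0534, limma adjusted p = 0.151) and by 0.47 with DA (limma adjusted p = 1.98e-06). Of the 6 tested M2 genes within 1 Mb of *Nnt*, 1 was past the threshold without DA, *Gm21188* at −0.59 (16.7%, beside 5.51% over all tested genes). With DA 1 was past it, *4833420G17Rik* (16.7%, beside 49.7%). The tested neighbours of the pair differed less than either member in both M2 comparisons.

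**Figure D2:**
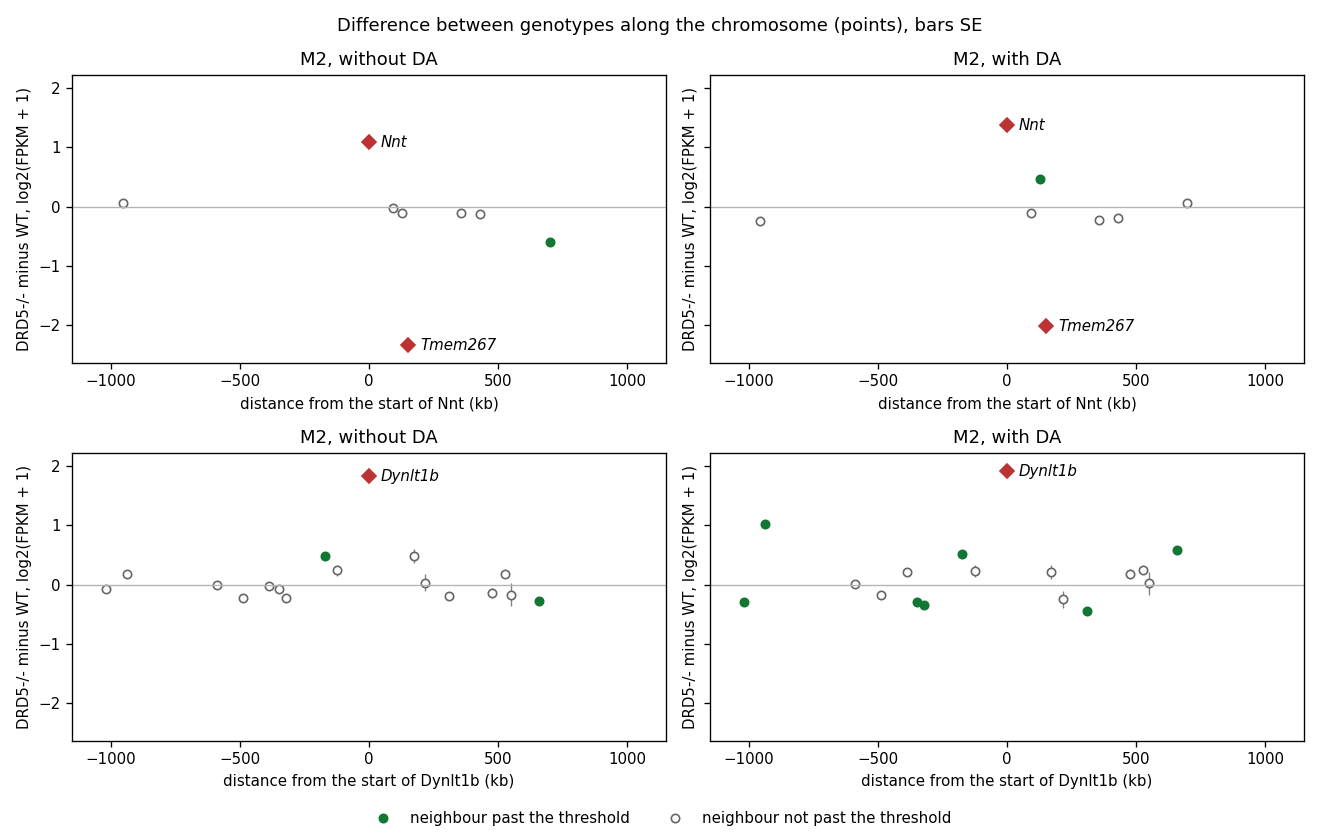
Difference between DRD5-/- and WT M2 BMDMs in log2(FPKM + 1) (y axis, bars SE) against the distance in kb from the start of *Nnt* (top) or *Dynlt1b* (bottom), without DA (left) and with DA (right). Diamonds are members of the 8 genes, filled circles neighbours past the threshold and open circles neighbours not past it; *Nnt* and *Tmem267* lie on opposite sides of 0, and the neighbours of *Dynlt1b* stay within about 1 of 0.

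*Dynlt1b* (chr17:6429530-6440500) was higher in DRD5-/- M2 BMDMs. In M2 its FPKM was 23.2, 23.4 and 23.7 in untreated WT and 79.4, 88.0 and 90.1 in untreated DRD5-/- BMDMs. With DA it was 18.2, 20.9 and 20.0 in WT and 63.7, 89.4 and 79.3 in DRD5-/- BMDMs, where the 3 libraries spread most. The DRD5-/- mean was 3.66 times the WT mean without DA and 3.93 times with DA (log2 differences 1.83 and 1.91, SE 0.091). In M1 the values ran from 26.8 to 47.0 and the log2 differences, −0.14 and −0.40 (SE 0.133), pointed the other way. The level in M1 thus lay between the levels of the M2 genotypes, though the M1 and M2 tables were normalized separately. With DA *Dynlt1b* differed by −0.24 in WT (limma adjusted p = 0.0286) and by −0.16 in DRD5-/- M2 BMDMs (limma adjusted p = 0.206), neither past the threshold.

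These values carry an uncertainty that the other 7 genes do not share to this degree. *Dynlt1b* is one of a cluster of near-identical copies on chromosome 17, and 83.2% of the 50-base windows of its transcript (601 of 722) also occur in *Dynlt1a*, *Dynlt1c* or *Dynlt1f*. The coding sequences of all 4 genes have 339 bases, and each of the other 3 differs from that of *Dynlt1b* by 1 base. The start of the coding sequence (bases 1 to 60, 5′ to 3′, GENCODE M21, GRCm38) is shown because it holds that single base, in capitals:
Dynlt1b: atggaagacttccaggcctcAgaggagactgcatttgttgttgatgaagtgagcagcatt
Dynlt1a: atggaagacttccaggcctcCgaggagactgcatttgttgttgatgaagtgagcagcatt
Dynlt1c: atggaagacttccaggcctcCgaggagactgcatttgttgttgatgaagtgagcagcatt
Dynlt1f: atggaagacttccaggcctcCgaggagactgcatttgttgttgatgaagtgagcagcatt
The substitution from *Dynlt1b* to each of the other 3 is A21C, with positions counted from 1 at the first base of the coding sequence. For comparison, 4.0% of the windows of *Cd59a* occur in *Cd59b* and 2.0% of those of *Gdf3* in other genes, and none of the windows of *Nnt*, *Tmem267*, *Itgb7*, *Camk2b* or *Gm1673* is shared.

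The 4 copies were therefore also added up. Their summed FPKM in M2 was 79.9, 87.3 and 78.6 in untreated WT and 159.6, 168.1 and 165.0 in untreated DRD5-/- BMDMs, and with DA 79.3, 81.4 and 78.9 in WT and 140.2, 145.3 and 149.4 in DRD5-/- BMDMs. The sum was higher in every DRD5-/- library than in every WT library, by 1.0 without and 0.85 with DA on the log2 scale. *Dynlt1b* took 49.7% to 54.6% of the sum in untreated DRD5-/- and 26.8% to 30.2% in untreated WT libraries. *Dynlt1c*, the copy with the most FPKM in WT, differed by 0.48 without DA (SE 0.115, limma adjusted p = 0.00689) and by 0.21 with DA (limma adjusted p = 0.117), neither past the threshold. The sums in M1 were 165.1 to 210.0 in all 12 libraries, with differences of −0.05 and 0.00. Among the 16 tested neighbours of *Dynlt1b* within 1 Mb, 2 were past the threshold in M2 without DA, 1 higher and 1 lower (12.5%, beside 5.51% over all tested genes). With DA 3 were higher and 4 lower (43.8%, beside 49.7%). *Tmem181a*, whose RefSeq range overlaps that of *Dynlt1a*, was past it without DA (0.49, SE 0.0378, limma adjusted p = 4.62e-07) and with DA (0.52). *Rps6ka2* was also past it in both, at −0.27 without DA (limma adjusted p = 7.65e-05) and 0.59 with DA. In M1 *Tmem181a* differed by 0.04 and −0.07 (SE 0.0578).

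**Figure D3:**
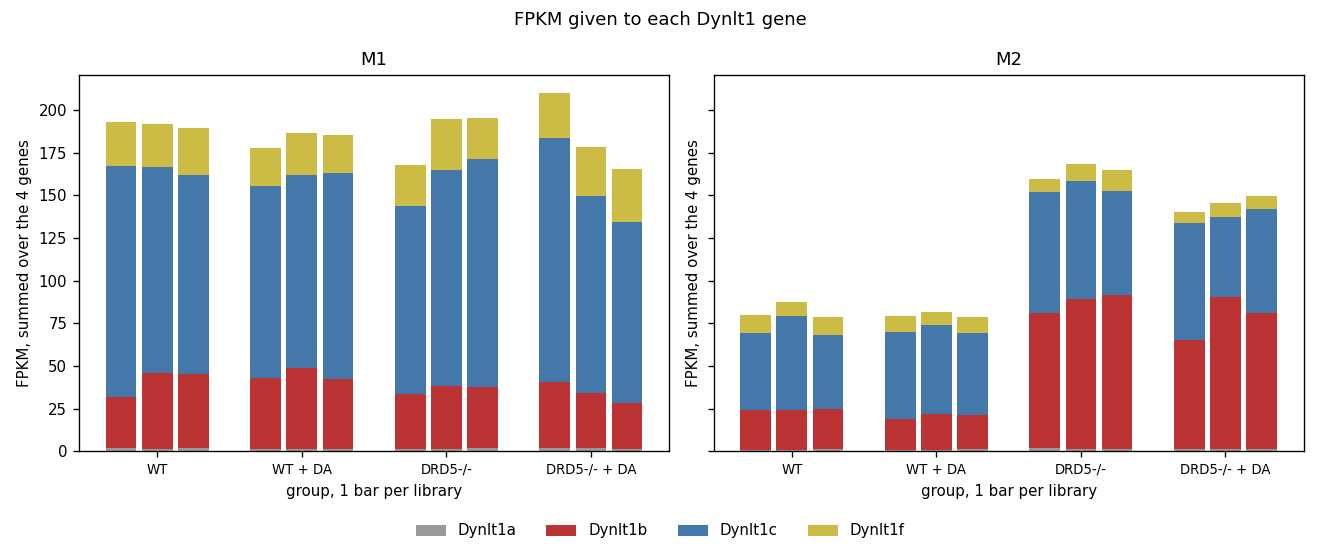
FPKM that the authors' pipeline gave to *Dynlt1a*, *Dynlt1b*, *Dynlt1c* and *Dynlt1f* (stacked, y axis from 0), with 1 bar per library, in M1 (left) and M2 (right). In M2 the red *Dynlt1b* segment and the whole bar are higher in DRD5-/- than in WT libraries, and in M1 the bars lie between 165.1 and 210.0 in all groups.

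*Cd59a* (chr2:104095753-104115410) was higher in DRD5-/- M2 BMDMs with and without DA. In M2 its FPKM was 6.43, 6.26 and 7.48 in untreated WT, 6.30, 6.83 and 6.5 in DA-treated WT, 16.1, 17.0 and 15.6 in untreated DRD5-/- and 16.3, 16.6 and 15.8 in DA-treated DRD5-/- BMDMs. The DRD5-/- mean was 2.41 times the WT mean without DA and 2.48 times with DA (log2 differences 1.16 and 1.19, SE 0.0558). DA left no detectable difference in either genotype: −0.03 in WT (limma adjusted p = 0.625) and 0.00 in DRD5-/- BMDMs (limma adjusted p = 0.995). In M1 the 12 values ran from 2.30 to 3.65 and overlapped. Its neighbour and paralog *Cd59b* stayed between 0.04 and 0.31 in all 24 libraries. Of the 15 other tested complement genes and regulators, 0 were higher and 3 lower in untreated DRD5-/- M2 BMDMs (20.0%, beside 5.51% over all tested genes; median −0.10, beside −0.03), among them *C3* at −0.66 and *Serping1* at −0.71. With DA, 5 were higher and 2 lower (46.7%, beside 49.7% over all tested genes), and *C3* (1.45) and *Serping1* (0.55) were on the other side of 0 there.

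*Itgb7* (chr15:102215994-102233405) rose with DA in WT BMDMs of both stimuli. In M1 WT BMDMs it rose from 27.3, 28.9 and 27.5 FPKM without DA to 50.3, 53.6 and 55.4 with DA, by 0.91 on the log2 scale (SE 0.039, limma adjusted p = 2.75e-10). In M1 DRD5-/- BMDMs it was at 27.7, 28.7 and 29.0 without and at 27.2, 28.7 and 28.04 with DA, a difference of −0.02 (limma adjusted p = 0.939). The untreated M1 genotypes thus overlapped (0.03), and the DA-treated ones differed by −0.90, with the DA-treated WT libraries alone standing apart.

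In M2, whose table was normalized separately, *Itgb7* had lower FPKM and differed between the genotypes already without DA. Its FPKM was 4.43, 4.30 and 4.16 in untreated WT and 1.24, 1.42 and 1.59 in untreated DRD5-/- BMDMs. With DA it rose in WT to 6.38, 7.41 and 7.63, by 0.62 (SE 0.0823, limma adjusted p = 1.02e-05). In DRD5-/- M2 BMDMs it was at 1.39, 1.94 and 1.71 with DA, a difference of 0.15 (limma adjusted p = 0.195). The WT mean was 3.03 times the DRD5-/- mean without DA and 4.25 times with DA, so the separation in M2 was present before DA and was wider with it. Whether the DA effects of the genotypes differ was not tested, because that difference is made of the contrasts that chose the gene. Its partner chain *Itga4* was between 6.47 and 12.4 FPKM in all libraries and past the threshold in none of the genotype comparisons, and the other partner, *Itgae*, did not exceed 0.17. Of 12 other tested integrin genes in untreated M2, 0 were higher and 1 was lower in DRD5-/- BMDMs, *Itgb3* at −0.32 (8.33%, beside 5.51% over all tested genes). With DA 2 were higher and 7 lower (75.0%, beside 49.7%). *Igfbp6*, which lies within 1 Mb of *Itgb7*, differed in M2 by −0.86 without DA (SE 0.11, limma adjusted p = 5.69e-05) and by −0.64 with DA (limma adjusted p = 0.000112).

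*Gdf3* (chr6:122605403-122610087) was lower in DRD5-/- M2 BMDMs. Its FPKM was 44.9, 43.3 and 44.3 in untreated WT, 33.7, 34.6 and 37.6 in DA-treated WT, 16.5, 18.4 and 19.4 in untreated DRD5-/- and 17.2, 14.7 and 16.0 in DA-treated DRD5-/- BMDMs. The WT mean was 2.44 times the DRD5-/- mean without DA and 2.21 times with DA (log2 differences −1.25 and −1.10, SE 0.0602). With DA *Gdf3* fell by 0.32 in WT M2 BMDMs (SE 0.0602, limma adjusted p = 0.000279), a call that was lost in some of the other settings (adjusted p up to 0.00198). The difference in DRD5-/- M2 BMDMs was −0.17 (limma adjusted p = 0.046). In M1 it stayed between 10.4 and 13.8 FPKM in all 12 libraries, below the level of every M2 library, in a table that was normalized separately. Among 22 other tested ligands, receptors and Smads of the TGF-β family, 0 were higher and 1 was lower in untreated DRD5-/- M2 BMDMs (4.55%, beside 5.51% over all tested genes). With DA 5 were higher and 7 lower (54.5%, beside 49.7%; median −0.01, beside −0.06).

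*Camk2b* (chr11:5969629-6066357) and *Gm1673* (chr5:33983433-33985009) are low genes whose signal was near the floor in M1. In every library the lowest values of short genes with 1 transcript piled up at 1 level once multiplied by transcript length, which, read as the value of 1 fragment, would put the libraries at 16800000 to 21500000 fragments. This is a rough estimate, since the files hold no counts. *Camk2b* was at 0.44, 0.44 and 0.63 FPKM in untreated WT and 2.72, 2.58 and 2.48 in untreated DRD5-/- M2 BMDMs, and with DA at 0.31, 0.56 and 0.35 in WT and 2.61, 2.72 and 3.16 in DRD5-/- BMDMs. The DRD5-/- mean was 5.15 times the WT mean without DA and 6.96 times with DA. On the log2(FPKM + 1) scale, which understates changes of low genes, the differences were 1.26 and 1.45 (SE 0.0833), and with a pseudocount of 0.1 they were 2.17 and 2.56. *Camk2b* entered the M2 test through its DRD5-/- libraries alone. In M1 all 12 values were between 0.21 and 0.44. With DA it differed by −0.10 in WT (limma adjusted p = 0.302) and by 0.09 in DRD5-/- M2 BMDMs (limma adjusted p = 0.442). The WT test can show little, since every WT M2 library was under 1 FPKM. The isoforms with more FPKM in these libraries, *Camk2d* and *Camk2g*, differed by 0.02 and 0.00 in untreated M2, and with DA by −0.43 (SE 0.0453, limma adjusted p = 8.87e-07) and −0.28 (SE 0.0541, limma adjusted p = 0.000276). *Camk2a*, the remaining isoform, was at 0.51 to 1.14 FPKM in M2 and differed by 0.16 without DA (limma adjusted p = 0.109) and by −0.38 with DA (limma adjusted p = 0.00015), the opposite sign to *Camk2b*.

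*Gm1673* is the one of the 8 genes on the chromosome of *Drd5*, which starts 4.33 Mb beyond its end. Its M2 FPKM was 2.30, 1.90 and 1.78 in untreated WT, 1.14, 0.56 and 0.77 in DA-treated WT, 4.24, 5.51 and 5.89 in untreated DRD5-/- and 3.97, 3.19 and 3.74 in DA-treated DRD5-/- BMDMs. The 4 groups were ordered without overlap, from DA-treated WT upwards to untreated DRD5-/-. The DRD5-/- mean was 2.62 times the WT mean without DA and 4.41 times with DA (log2 differences 1.05 and 1.35, SE 0.122). With DA *Gm1673* fell by 0.72 in WT (SE 0.122, limma adjusted p = 9.32e-05). In DRD5-/- BMDMs the difference was −0.42, with the libraries apart, and did not pass the threshold (limma adjusted p = 0.0183). In M1 it ran from 0 to 0.58, where 1 fragment would be worth about 0.1 FPKM on its transcript of 511 bases. Of 98 tested M2 genes within 10 Mb of *Drd5*, 3 were past the threshold without DA (3.06%, beside 5.51% over all tested genes) and 43 with DA (43.9%, beside 49.7%). In M1 the counts were 0 of 94 without DA (beside 0.936%) and 19 with DA (20.2%, beside 18.5%).

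**Figure D4:**
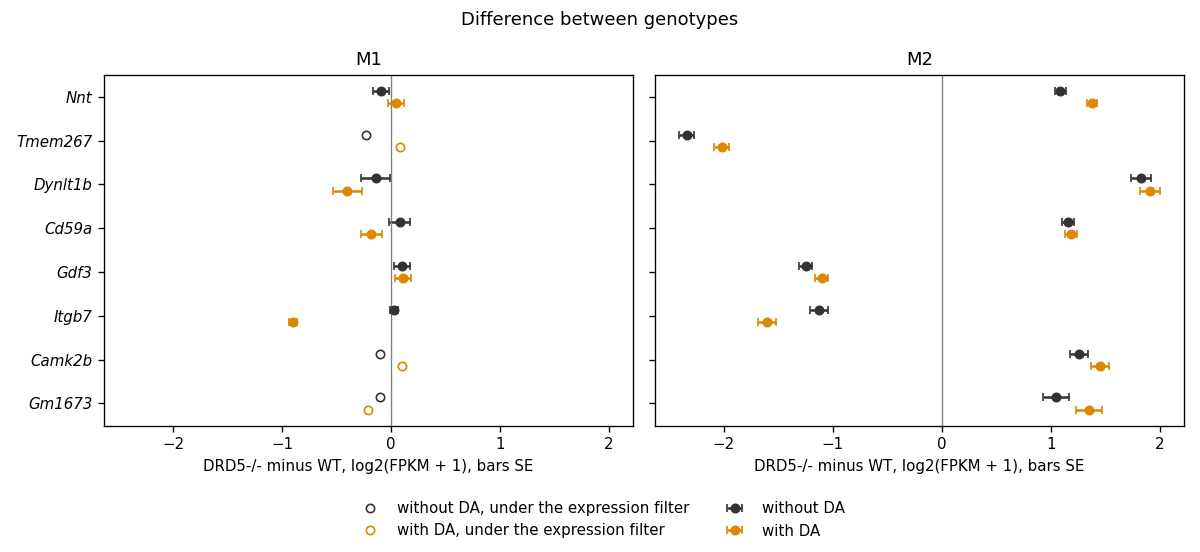
Difference between DRD5-/- and WT BMDMs (x axis, log2(FPKM + 1), bars SE of the limma fit) for each gene, without DA (dark) and with DA (orange), in M1 (left) and M2 (right); open circles are genes under the expression filter. In M2 the paired points lie together, between −2.34 and 1.91 and far from 0, and in M1 they lie near 0 apart from *Itgb7* with DA at −0.90.

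Set side by side, the members that passed the threshold with DA did so in WT BMDMs, and whether the DA effects of the genotypes differ was not tested. In M1 WT, DA passed the threshold for 1 of the 5 members tested (*Itgb7*), where 14.3% of all tested genes passed. In M1 DRD5-/- BMDMs it passed for 0 of 5 and for 0.0% of all 10040 tested genes by limma; 569 genes, and 0 of the 5, had an unadjusted p under 0.05. In M2 WT, DA passed for 5 of 8, 1 higher (*Itgb7*) and 4 lower (*Nnt*, *Tmem267*, *Gdf3* and *Gm1673*), where 46.3% of all tested genes passed, 25.9% higher and 20.4% lower. In M2 DRD5-/- BMDMs it passed for 0 of 8, where 4.02% of all tested genes passed; 3 of the 8 (*Tmem267*, *Gdf3* and *Gm1673*) had an unadjusted p under 0.05 in the limma fit.

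**Figure D5:**
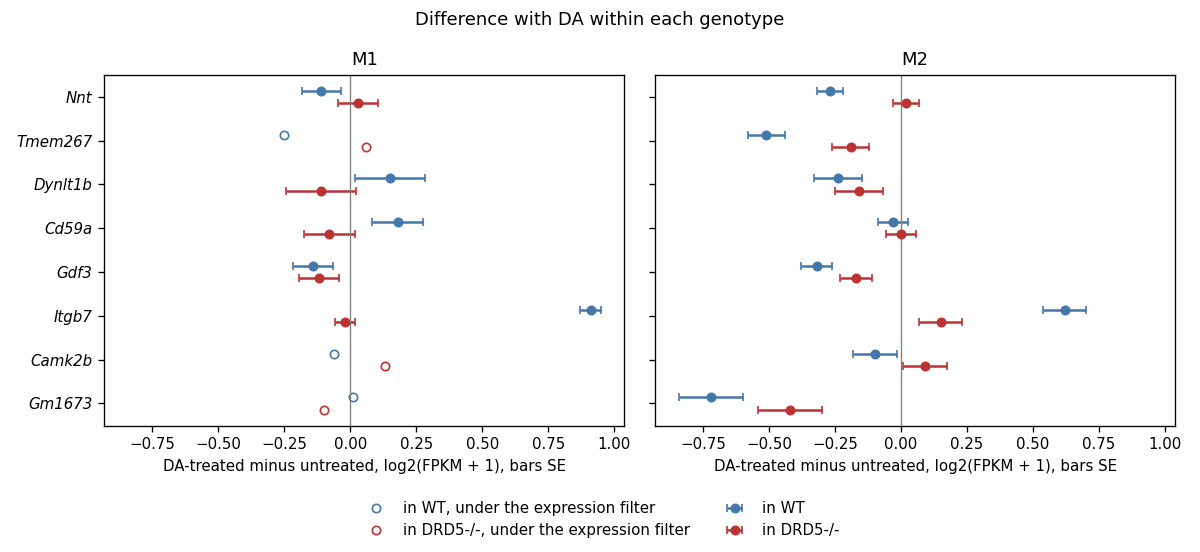
Difference between DA-treated and untreated BMDMs (x axis, log2(FPKM + 1), bars SE of the limma fit) for each gene in WT (blue) and DRD5-/- (red), in M1 (left) and M2 (right); open circles are genes under the expression filter. *Itgb7* in WT lies at 0.91 in M1 and 0.62 in M2, and the DRD5-/- points lie between −0.42 and 0.15 in both.

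The second question was whether the pattern followed position or strain. The 8 genes lie on 7 chromosomes, and only *Nnt* and *Tmem267* share a chromosome. Within 1 Mb of the members, 126 other genes were tested in M2, of which 10 were past the threshold between untreated genotypes (1 higher and 9 lower in DRD5-/- BMDMs; 7.94%, beside 5.51% over all tested genes). With DA 61 were past it (48.4%, beside 49.7%). In M1 the counts were 2 of 123 without DA (1.63%, beside 0.936%) and 31 with DA (25.2%, beside 18.5%). Of all genes past the threshold in untreated M2, 24.8% were higher in DRD5-/- BMDMs.

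A list of 7 genes reported to differ between C57BL/6 substrains, beside *Nnt*, was written for these data from general knowledge with earlier results of these data known. Of its genes 4 were tested in each stimulus. Between untreated M2 genotypes 3 of 4 were past the threshold, where 5.51% of all tested genes were, and with DA 2 of 4, where 49.7% were. In M1 0 of 4 were past it in either comparison by limma, where 0.936% of all tested genes were without DA and 18.5% with DA. *Wdfy1*, which encodes an endosomal adaptor of Toll-like receptor signaling, was at 5.98, 5.37 and 5.17 FPKM in untreated WT and 9.83, 10.2 and 9.88 in untreated DRD5-/- M2 BMDMs. With DA it was at 4.47, 3.58 and 3.76 in WT and 10.5, 10.7 and 10.6 in DRD5-/- BMDMs, so all 6 DRD5-/- libraries lay above all 6 WT libraries. Its log2 differences were 0.76 (SE 0.0627, limma adjusted p = 9.19e-07) and 1.24 (limma adjusted p = 2.55e-10) in M2, and −0.08 (SE 0.0532, limma adjusted p = 0.369) and −0.18 (limma adjusted p = 0.011) in M1. *Ide*, the insulin-degrading enzyme, differed in M2 by −0.35 (SE 0.0302, limma adjusted p = 1.31e-06) and −0.61 (limma adjusted p = 1.99e-10), and in M1 by −0.08 and −0.06. *Cyfip2*, a regulator of actin branching, differed in untreated M2 by 0.29 (SE 0.0363, limma adjusted p = 4.71e-05) and with DA by 0.00 (limma adjusted p = 0.918). *Entpd4* varied between libraries of 1 group, from 1.10 to 6.67 FPKM over all 24, and was past the threshold in no comparison. In untreated M2 it differed by −1.08 (SE 0.246, limma adjusted p = 0.00528), with the libraries apart, and with DA by −0.37 (limma adjusted p = 0.184). In M1 *Entpd4* differed by 0.79 and 0.25 (SE 0.312), with overlapping libraries. *Nlrp12*, *Crb1* and *Gabra2* did not exceed 0.27 FPKM in any library.

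No gene was found that differed between genotypes past the threshold in 1 direction in all 4 comparisons: limma called 0 of the 9620 genes tested in both stimuli, and 151 had an unadjusted p under 0.05 in all 4. In M2 alone, 272 of 10735 genes (2.53%) were past it in both comparisons in 1 direction. In M1 alone, 79 of 10040 (0.787%) were. Ranked by the smaller of the absolute M2 differences, the 8 members took places between 3 and 19, from which nothing is read, since these differences chose them. Among the genes with the largest smallest difference over all 4 comparisons, *Evl*, an actin regulator, was at 153.0 to 161.3 FPKM in untreated WT and 178.3 to 191.5 in untreated DRD5-/- M1 BMDMs, and at 210.3 to 223.8 and 272.7 to 283.5 in M2, with log2 differences of 0.24, 0.67, 0.36 and 0.58 (untreated M1, DA-treated M1, untreated M2, DA-treated M2). *Vegfb*, a growth factor, differed by 0.26, 0.61, 0.30 and 0.86 in the same order, and *Lrrc17* by −0.53, −0.76, −0.26 and −0.65. The top gene by this measure, *Rps27rt*, a retrogene copy of a ribosomal protein gene, ranged from 5.20 to 20.6 FPKM within the 3 untreated M2 WT libraries.

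The 10 non-members with the largest differences in both M2 comparisons were taken after the values were seen. Those tested in M1 had no difference there past 0.18 in size without DA, and lay between −0.46 and 0.48 with DA. Of these genes, 8 are predicted genes with no name. The 2 named ones were *Ly6e*, a surface protein induced by interferon, at 122.1 to 130.0 FPKM in untreated WT and 50.0 to 52.0 in untreated DRD5-/- M2 BMDMs (−1.30 and −1.38 with DA), and *Lrmda*, at 4.11 to 4.6 and 0.42 to 0.64 (−1.81 and −1.84 with DA). In M1 *Ly6e* differed by 0.06 and −0.04 and *Lrmda* by 0.04 and −0.02.

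Over the 24 libraries, with the mean of each stimulus removed, several members resembled each other. This likeness is a description, since all points share the libraries and the members were chosen on them. Each member was compared with genes tested in both stimuli only. *Tmem267*, *Camk2b* and *Gm1673* were not tested in M1, so they could not appear among the genes most like another member. Out of 9619 such genes, the 3 with the highest Pearson's r to *Nnt* were *Gm43828* (0.977), *Wdfy1* (0.962) and *Dynlt1b* (0.958). *Camk2b* was most like *Gm43828* (0.985), *Nnt* (0.981) and *Dynlt1b* (0.952), and *Cd59a* was most like *Gm43828* (0.953), *Nnt* (0.950) and *Dynlt1b* (0.945). *Gm43828*, a predicted gene on chromosome 5, was at 1.43 to 1.82 FPKM in untreated WT and 11.2 to 12.1 in untreated DRD5-/- M2 BMDMs. Those lower in DRD5-/- had other neighbours. *Tmem267* was most like *Pdpn* (0.972), *Gdf3* (0.963) and *Ass1* (0.960), and *Gdf3* like *L1cam* (0.965), *Ass1* (0.956) and *Pdpn* (0.953). *Itgb7* was most like *Nqo1* (0.974), *Klf4* (0.974) and *Fdft1* (0.967), which encode an antioxidant enzyme, a transcription factor and squalene synthase. *Gm1673* was most like *Tmem65* (0.947), *Fam107b* (0.923) and *Knop1* (0.915).

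The other lists around the members were counted in the same way, and each share stands beside 5.51% of all tested genes in untreated M2 and 49.7% with DA. Of the 24 tested dynein and dynactin genes, 0 were past the threshold in untreated M2 (0.0%) and 5 with DA (20.8%), all lower in DRD5-/- BMDMs. Of the 19 tested genes of mitochondrial NADPH and peroxide handling, 1 was lower in untreated DRD5-/- M2 BMDMs, *Mthfd2* at −0.28, and none was higher (5.26%). With DA 4 were higher and 12 lower (84.2%, beside 49.7% over all tested genes), with a median of −0.51, beside −0.06. *Mthfd2* was at −2.61 and *Shmt2*, its partner in mitochondrial folate metabolism, at −1.50. *Nnt*, at 1.38, was on the other side of 0 from the median of the list, as were the 4 higher genes. Of the 14 tested calmodulin and CaM kinase genes, 0 were higher and 2 lower in untreated DRD5-/- M2 BMDMs (14.3%), and 1 was higher and 6 lower with DA (50.0%). In untreated M1 BMDMs, where 0.936% of all tested genes were past the threshold, the lists of dynein, complement, integrin, calmodulin and mitochondrial genes held 0 by limma. At that share lists of this size would hold few or none. The TGF-β list held 1 of 20 tested (5.0%), *Tgfb1* at 0.34.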

How the data were processed

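RNA-seq libraries of M1 and M2 BMDMs (12 each) were used. The submitters' protocol describes BGISEQ-500 sequencing, mapping with HISAT2 and normalization of matched reads to FPKM; their processing notes name GRCm38.p6 and Bowtie2 2.2.5, whose role is not given in the sources used here. The authors deposited FPKM, with no counts, so depth is known only as a rough estimate.

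In each stimulus, genes whose FPKM reached 1 in 3 or more of its 12 libraries entered the fit. Values of log2(FPKM + 1) were modelled in R 4.3.3 by limma 3.58.1 with an intensity trend, all 4 groups together, and Benjamini-Hochberg adjustment over all genes. Past the threshold means an adjusted p below 0.001 and 1.2-fold, the cutoff in the study's methods. Each stimulus was fitted apart, so no test spans both. On simulated data of the untreated M2 comparison (10577 genes) the fit called 99 of 100 genes changed by 1 on the log2 scale. It called 88 of 98 genes changed by 0.5. For untreated M1 (9968 genes) it called 98 of 99 genes changed by 1 and 79 of 100 changed by 0.5. Smaller changes were not simulated.

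Same-numbered libraries were not more alike than others (mean residual r −0.021 in M1, −0.016 in M2), so none were paired. Positions came from RefSeq (GRCm38.p6) by gene ID and sequences from GENCODE M21. Named are the members, *Drd5*, paralogs and partners, neighbours within 1 Mb past the threshold (up to 5 per member by size, of which examples are given), list genes past it in at least 2 genotype comparisons (likewise), the 10 genes most like over 4 comparisons (likewise) and the 3 of the highest r per member; *Ly6e*, *Lrmda* and the named list genes past it in 1 comparison were chosen after their values were seen. Members and lists were chosen with earlier results of these data known.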

Additional observations from a re-analysis of the deposited data

How the results depend on the processing

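The M2 differences of the 8 members kept their sign in all settings, namely a replicate block, quantile normalization, a pseudocount of 0.1, fits of the compared groups alone, scaling by median of ratios, fits without the filter on low values and fits without each library. These contrasts chose the members and the libraries of the genotypes lay apart, so nothing is read from the kept signs. The number of genes past the threshold between untreated M1 genotypes was 94 in the reported fit and 43 without the filter, 202 at an adjusted p under 0.05 and 13 at 2-fold. In DA-treated M1 it was 1861, and 60 at 2-fold. In untreated M2 it was 592, with 895 at 0.05 and 36 at 2-fold, and in DA-treated M2 5333, with 741 at 2-fold. Leaving out 1 library gave 36 to 94, 1537 to 1836, 470 to 564 and 4949 to 5334 genes in the same order. The untreated M1 count was 45 without untreated WT library 3, 36 without untreated DRD5-/- library 2 and 57 without untreated DRD5-/- library 3. Genes past it in all 4 comparisons numbered 0 in every setting but the one without untreated M1 DRD5-/- library 1, which gave 1, *Evl*. Of the members, 5 moved with DA in WT M2; leaving out 1 library gave 3 to 5, since *Nnt* was lost without the untreated WT library 3 or the DA-treated WT library 1, and *Gdf3* without the untreated WT libraries 1 or 3 or the DA-treated WT libraries 1 or 2. *Nnt* was also lost with the compared groups alone and *Gdf3* without the filter. Of the neighbours, 18 rather than 31 were past it in DA-treated M1 within 0.5 Mb, a window that holds fewer genes. The replicate block, run although the numbers do not pair the libraries, gave 74, 1769, 534 and 5264 genes between untreated M1, DA-treated M1, untreated M2 and DA-treated M2 genotypes and changed no member's call with DA. The share of genes past the threshold that were higher in DRD5-/- BMDMs depended on scaling. In untreated M2 it was 24.8%, and 40.2% with scaling by median of ratios. In DA-treated M1 it was 67.9%, and 47.5% with that scaling. Values under 1 FPKM rest on few fragments.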

Other observations

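Of the 6 neutrophil markers tested in M1, 5 were lower in DRD5-/- BMDMs without DA (83.3%, beside 0.936% over all tested genes) and 5 with DA (83.3%, beside 18.5%). Only 1 of the 9 markers reached an FPKM of 1 in every M1 library. *Camp* ran from 0.09 to 4.23 and *Ltf* from 0 to 2.53, both higher in WT. Such genes can enter the test through their WT libraries, so the shares are not free of the difference and nothing is read from them. *S100a9*, a calcium-binding protein of neutrophils and monocytes, differed between untreated DRD5-/- and WT M1 BMDMs by −3.24 and with DA by −3.25 on the log2(FPKM + 1) scale, *Ltf* by −1.65 and −1.67, *Camp* by −1.50 and −1.85 and *S100a8* by −0.68 and −1.18, all past the threshold in both (limma). These 4 genes did not enter the test in M2, and what their difference in M1 rests on was not tested.

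Of the 8 fibroblast and stromal markers, all tested in M2, 0 were higher and 7 lower in untreated DRD5-/- M2 BMDMs (87.5%, beside 5.51% over all tested genes), and 1 was higher and 4 lower with DA (62.5%, beside 49.7%; limma). Examples are the collagen genes *Col1a2*, at −0.46 without and −0.72 with DA, and *Col1a1*, at −0.35 and −0.74. *Pdgfra*, a receptor of fibroblasts, was at −0.54 without and 0.52 with DA.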
